A study of Oryctolagus cuniculus with 4 samples.

Results

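Described here are 97 rabbit genes, of 29587 listed, that had almost no reads in tendon stem/progenitor cells cultured without platelet-rich plasma (PRP) and were counted in both libraries of cells cultured with it. A gene was taken when its counts summed to at most 4 over the noPRP libraries and reached at least 10 in each PRP library. Genes with 50 or more distinct exon starts, mitochondrial genes and 4 regions of strongly changed neighbouring genes were left out. The counts alone were met by 106 genes, from which 1 was removed for its number of exon starts, 8 for lying in those regions and 0 for being mitochondrial. The genes were thus chosen by their counts in all 4 libraries, and the difference between noPRP and PRP is given as a description, with no test.

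The cells came from New Zealand White rabbits, and both groups were cultured tendon stem/progenitor cells that differed by the label in 1 respect, the presence of 10% (v/v) PRP in the medium. The noPRP group held 2 libraries and the PRP group held 2, and nothing in the labels says whether they came from separate animals or cultures. The agreement of libraries within a group may therefore be technical. The deposited tables carry Ensembl gene identifiers with exon positions and no gene symbols, and the gene table used for names matched 0 of them. No function can be given for any of the genes, and the label of the cells could not be checked against marker genes. Genes are named by their position in the OryCun2.0 assembly.

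Tendon stem/progenitor cells are the dividing cells of tendon that can form tenocytes, the cells that make and maintain its collagen fibres. PRP is plasma enriched in platelets, which release growth factors, chemokines and adhesive proteins from their granules, and a preparation can also carry leukocytes and their products. A gene is called silent when its RNA is not seen at the depth sequenced. In bulk RNA, a transcript that appears can come from a low output of every cell, from a high output of a few cells, or from cells of another kind, and these cannot be told apart.

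Total counts were 20100175 and 20947284 in noPRP replicates 1 and 2 and 24064713 and 23829027 in PRP replicates 1 and 2. PRP replicate 2 stood apart by the number of genes it detected, 17499 against 15796 to 15981 in the other libraries, and 1752 genes had a count in it alone. Rank correlations of log2 counts-per-million (CPM) over 12707 tested genes ran from 0.654, between noPRP replicate 2 and PRP replicate 2, to 0.908, between noPRP replicate 1 and PRP replicate 1. Within groups they were 0.871 for noPRP and 0.902 for PRP. The libraries did not group by PRP: noPRP replicate 1 correlated more with either PRP library (0.908 and 0.877) than with noPRP replicate 2. The correlation of noPRP replicate 2 with PRP replicate 1 was 0.820. The part of these differences between libraries in the results below was not tested.

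The 97 genes together held 11587 counts in PRP replicate 1 and 7882 in PRP replicate 2, against 103 and 81 in the noPRP libraries. As shares of all counts, these are 0.0481% (95% Wilson interval 0.0473 to 0.049) and 0.0331% (0.0324 to 0.0338) with PRP. Without PRP the shares were 0.000512% (0.000423 to 0.000621) in replicate 1 and 0.000387% (0.000311 to 0.000481) in replicate 2. The intervals cover counting error only. Most of this signal came from few genes: the 3 genes with the most counts held 52.5% of the summed PRP counts and the 12 with the most held 72.5%.

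Most of the genes were barely above the minimum. The lower of the 2 PRP counts was 10 to 19 for 57 genes, 20 to 49 for 20, 50 to 99 for 13 and 100 or more for 7. The median count was 23 in either PRP library, with a range of 10 to 3376 in replicate 1 and of 10 to 2112 in replicate 2. Counts include both ends of a read pair, so a count of 10 can rest on as few as 5 fragments. Even counts made up 48 of 97 values (49.5%) in PRP replicate 1 and 61 of 97 (62.9%) in PRP replicate 2. Among all genes with 1 to 20 counts in the library they made up 56.7% and 56.3%. The median level was 1.05 CPM, taken over each gene's mean of the PRP libraries.

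**Figure D1:**
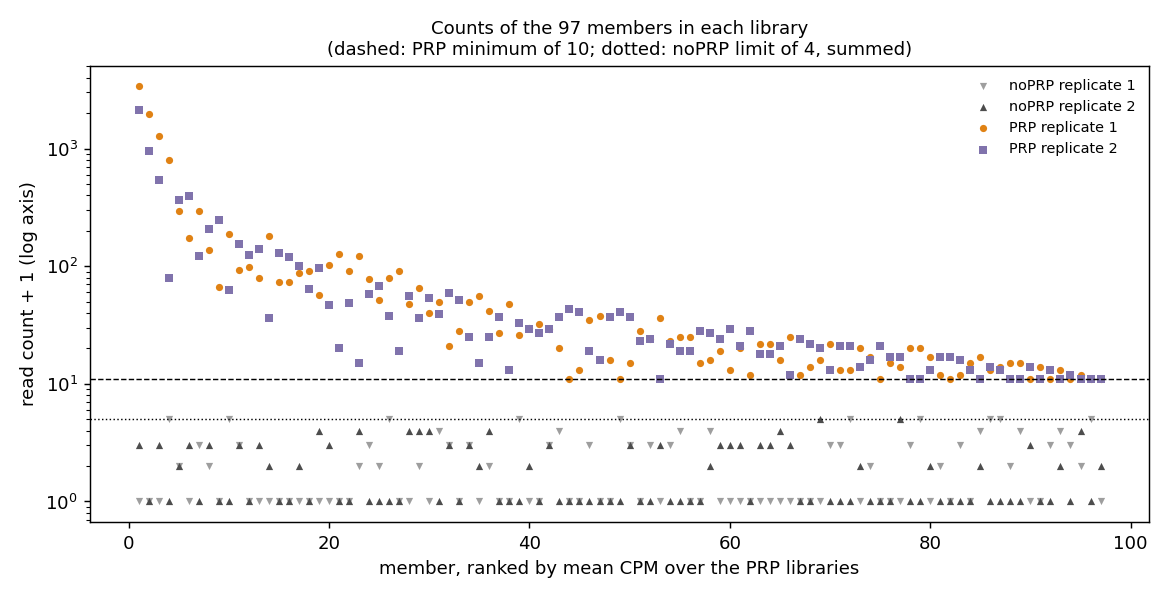
Read count plus 1 (log axis) of each of the 97 genes in the 4 libraries, with the genes ordered by mean CPM over the PRP libraries. The counts fall from 3376 and 2112 for the first gene to 10 to 19 in the lower PRP library for 57 of the 97, and the noPRP points lie at 0 to 4 counts by the choice of the genes.

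The highest level belonged to ENSOCUG00000014614, an 11-exon gene on the plus strand at chr14:94119060-94143870. Reads were counted 0 and 2 times in noPRP replicates 1 and 2, but 3376 and 2112 times in PRP replicates 1 and 2; pairs of counts below keep this order. Its mean level with PRP was 114 ± 37 CPM (SD, n = 2), and alone it held 28.2% of the counts of the 97 genes in PRP. The ratio of its summed counts, scaled by library sizes, was 2782, with a 95% exact counting interval of 769.7 to 22976 that is this wide because the noPRP side rests on 2 counts.

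Next was ENSOCUG00000007233, a compact 4-exon gene on the plus strand at chr4:39915179-39916220. Its counts were 0 and 0 without PRP against 1958 and 961 with it, a level of 60.8 ± 29.0 CPM (SD, n = 2). Against a floor of 3 counts summed over the noPRP libraries, it was at least 986-fold higher. The third gene by level, a 5-exon gene at chr19:41228718-41230202, had 0 and 2 counts without PRP against 1281 and 535 with it, a level of 37.8 ± 21.8 CPM (SD, n = 2). All 3 had more counts in PRP replicate 1 than in PRP replicate 2, and in each the PRP libraries differed by no more than 2-fold after scaling.

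The fourth gene behaved differently in the PRP libraries. It lies on the minus strand at chr14:142371306-142429234 and has 6 exons. Its counts were 4 and 0 without PRP against 795 and 79 with it, so its mean of 18.2 CPM carried an SD of 21.0 (n = 2). Its level in PRP is thus set by replicate 1.

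The next genes by level were a pair of chromosome 13 genes that do not neighbour each other. A 3-exon gene at positions 48903976 to 48916352 had 1 and 1 counts without PRP against 296 and 363 with it, a level of 13.8 ± 2.1 CPM (SD, n = 2). A 2-exon gene at positions 62739446 to 62740090 had 0 and 2 counts without PRP against 172 and 398 with it, a level of 11.9 ± 6.8 CPM (SD, n = 2). The former was the closer of these in its agreement between the PRP libraries.

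Of the 6 genes that complete the first 12, the 20-exon gene at chr5:22876778-22885321 had 2 and 0 counts without PRP against 295 and 122 with it. On chromosome 1, the 2-exon gene at positions 102184739 to 102186385 had 1 and 2 counts without PRP against 137 and 207 with it. A 1-exon gene of 1188 bases at chr4:38111631-38112818 had 0 and 0 counts without PRP against 66 and 245 with it, at least 105-fold higher by the same floor. The other 3 lie on unplaced sequences. On GL018782 at positions 122560 to 131860, a 7-exon gene had 4 and 0 counts without PRP against 188 and 62 with it. On GL019134 at positions 150480 to 156655, a 7-exon gene had 2 and 2 counts without PRP against 91 and 155 with it. On GL018789 at positions 10945 to 47075, a 14-exon gene had 0 and 0 counts without PRP against 97 and 123 with it, at least 74.3-fold higher.

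Levels per length gave another order. The chromosome 4 gene at 39915179 had the highest value, 106 ± 50 CPM per kilobase of exon (RPKM; SD, n = 2), ahead of the chromosome 14 gene at 94119060 with 69.8 ± 22.3 and the chromosome 19 gene at 41228718 with 59.4 ± 34.2. The values of these 3 in their separate libraries overlap. Only 9 of the 97 genes reached 10 RPKM, 32 lay from 1 to under 10, and 56 were under 1, down to 0.126 RPKM for the 35-exon gene at chr14:105803138-105920933. The median was 0.656 RPKM, against 8.05 for the 11246 other genes with at least 10 counts in each PRP library, where "other genes" leaves out the same regions and kinds of genes.

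Silence in noPRP was complete for a minority. Both noPRP libraries were at 0 for 28 of the 97 genes. Counts occurred in replicate 1 alone for 29, in replicate 2 alone for 26 and in both for 14. The noPRP sum was 1 for 11 genes, 2 for 25, 3 for 9 and 4 for 24, so sums of 2 and 4 were more common than 1 and 3. For the 28 genes at 0, the PRP levels were at least 7.77-fold to at least 986-fold higher against the floor of 3 counts, with a median bound of 17.6-fold. For the 69 genes with a noPRP count, the ratios ran from 5.07 to 2782 with a median of 20.3.

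Just inside the limits, the genes with the fewest PRP counts lay at chr19:44325574-44326674, with 4 and 0 counts without PRP against 10 and 10 with it, and at chr8:32675101-32684515, with 0 and 1 in noPRP and 10 and 10 in PRP. A further 2 genes tied for the next place, on GL018973 at positions 30678 to 108360, with 2 and 0 in noPRP and 10 and 11 in PRP, and at chr3:17176777-17178145, with 1 and 3 in noPRP and 11 and 10 in PRP. Just outside the noPRP limit, a chromosome 7 gene at positions 39739517 to 39762431 had 3 and 2 counts without PRP against 457 and 316 with it, more than most genes inside it. Genes at chr2:6298467-6342489 (0 and 5, then 154 and 44) and at chr19:19745310-19748086 (2 and 3, then 72 and 48) also missed that limit by 1 count. Just outside the PRP minimum were genes at chrX:109717230-109717415 (0 and 2, then 9 and 40), at chr9:14578330-14579394 (2 and 0, then 9 and 30) and at chr2:29600561-29643544 (0 and 3, then 20 and 9). In all, 40 genes had a noPRP sum of 5 or 6 with the PRP minimum met, and 28 had a lower PRP count of 8 or 9 with the noPRP limit met. No gap in the counts sets the 97 genes apart.

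The limits and the libraries therefore fix how many genes are counted. Requiring 0 counts in both noPRP libraries left 28 genes, and a PRP minimum of 20 left 40. Without PRP replicate 1 the same limits took 220 genes, and without PRP replicate 2 they took 200. With noPRP replicate 2 alone, held to at most 2 counts, 221 genes qualified, and with noPRP replicate 1 alone 134 did. Dropping a PRP library removes a condition, so the number can then only be larger. Over all 29587 listed genes, 0.358% met the counts of the rule before exclusions. The opposite pattern, at most 4 counts summed over PRP and at least 10 in each noPRP library, was met by 0.233%, or 68 genes after the same exclusions. Both PRP libraries had larger total counts than the noPRP libraries, so these shares, from raw counts, are not matched for depth. With limits scaled to the smallest library the rule took 74 genes. The opposite pattern was not counted that way, so no excess of either pattern is read from the shares.

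The PRP libraries agreed on most of the genes within 2-fold. The rule asks only that each reach 10 counts, so their ratio is not fixed by it. With library sizes scaled by edgeR's trimmed mean of M-values method (TMM), the ratio of PRP replicate 2 to PRP replicate 1 lay within 2-fold for 66 of 97 genes (68%), against 58.7% of the 11246 other genes. It exceeded 4-fold in either direction for 8 genes (8.25%), against 10.6% of the other genes. The median log2 ratio was 0.26 and the middle 50% of genes ran from −0.42 to 0.94, while the other genes had a median of 0.014. By raw counts, 47 genes were higher in PRP replicate 1, 46 in PRP replicate 2 and 4 were equal.

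Agreement depended on level in a way that the limits partly set. With at least 10 counts required in each library, a small summed count bounds how far the libraries can differ. Among the 69 genes with under 100 counts summed over PRP, 51 (73.9%) agreed within 2-fold, against 63.6% of 1534 other genes with 20 to 100 summed counts. The 69 lay nearer the minimum, with a median sum of 38 against 59, so these shares are not matched for level. Among the 28 genes with 100 or more summed counts, 15 (53.6%) agreed within 2-fold. A further 6 (21.4%) differed by more than 4-fold, of which 5 were lower in PRP replicate 2. Of the 11246 other genes, at all levels, 58.7% agreed within 2-fold and 10.6% differed by more than 4-fold. Those beyond 4-fold numbered 1189, of which 930 were lower in PRP replicate 2. Spearman's rho between the libraries across genes was 0.62 for all 97, 0.31 within the 28 and 0.24 within the 69, and it was 0.88 across the 11246 other genes, which span a wider range of levels. Across the 1534 other genes with 20 to 100 summed counts it was 0.072, below the 0.24 of the 69 genes in that range. Genes are not independent replicates, and these values are descriptions of 2 libraries.

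**Figure D2:**
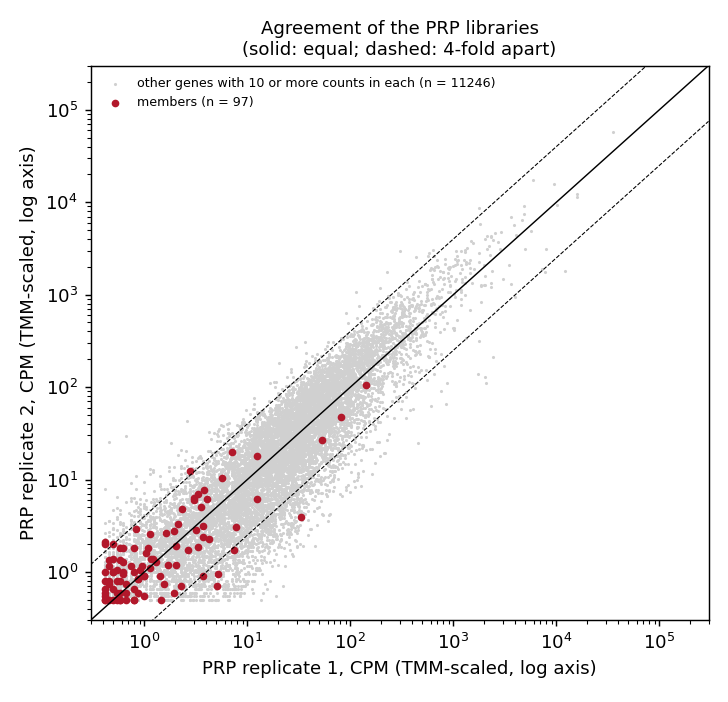
CPM scaled by TMM in PRP replicate 1 (horizontal, log axis) and PRP replicate 2 (vertical, log axis) for the 97 genes in red and the 11246 other genes with at least 10 counts in each library in grey. Most red points lie in the lower left corner near the minimum count, 66 of 97 lie within 2-fold of the line of equality, and 8 lie beyond the dashed 4-fold lines.

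The genes on which the PRP libraries differed most were found in both directions. Among those with at least 50 summed counts, the chromosome 14 gene at 142371306 described above was 8.39-fold higher in replicate 1. A 1-exon gene of 402 bases at chr21:9983473-9983874 had 122 and 14 counts, 7.27-fold higher in replicate 1. A 27-exon gene on GL018752 at positions 960018 to 978682 had 125 and 19, and a 10-exon gene at chr4:25909812-26006153 had 178 and 35, which are 5.49-fold and 4.24-fold higher in replicate 1.

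In the other direction, an 18-exon gene at chr1:90092444-90665695 had 10 and 42 counts, 5.04-fold higher in replicate 2, and a 7-exon gene on GL018829 at positions 687971 to 691596 had 10 and 40, which is 4.80-fold. The 1-exon chromosome 4 gene at 38111631, with 66 and 245 counts, was 4.45-fold higher in replicate 2. A 12-exon gene at chr14:30696561-30761768 had 12 and 40 counts, a ratio of 3.996. With 10 to 12 counts in the lower library, 3 of these 4 ratios have wide counting error.

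In structure, the genes had a smaller median extent in the genome than other genes counted in both PRP libraries, and they lay nearer to the medians of all listed genes. From the first exon start to the last exon end the median span was 5069 bases, against 23379 for the 11246 other genes counted in both PRP libraries and 37635 for the 68 genes of the opposite pattern. A span under 10 kb was found for 60 of the 97 genes (61.9%) and for 31.9% of the other genes. The median exon length, the bases over which reads were counted, was 1511 against 2042 and 1881. The median number of exons was 5 against 9 and 7. Over all 29587 listed genes the medians were a span of 7500 bases, an exon length of 1356 and 4 exons, so by exon length and number the set was slightly above them. Low level goes with smaller gene models in these tables, and among genes with 20 to 100 summed PRP counts the median span was 4565 for the 69 genes of this kind and 13226 for the 1534 others, with exon lengths of 1547 and 1647 bases. Within this range the 69 genes also had fewer counts, a median sum of 38 against 59.

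Unplaced sequences are short and can cut gene models, so spans were also taken on chromosomes alone. There the median was 7894 bases for 58 genes of the set, 28617 for 8152 other genes counted in both PRP libraries and 40118 for 56 genes of the opposite pattern. With both limits together, on chromosomes and with 20 to 100 summed counts, it was 6062 for 40 genes and 17093 for 1105 others. Over all listed genes on chromosomes the median span was 9431. The order of the medians was thus the same in each of these 4 comparisons with the other counted genes, all chosen after the values were seen and none tested.

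**Figure D3:**
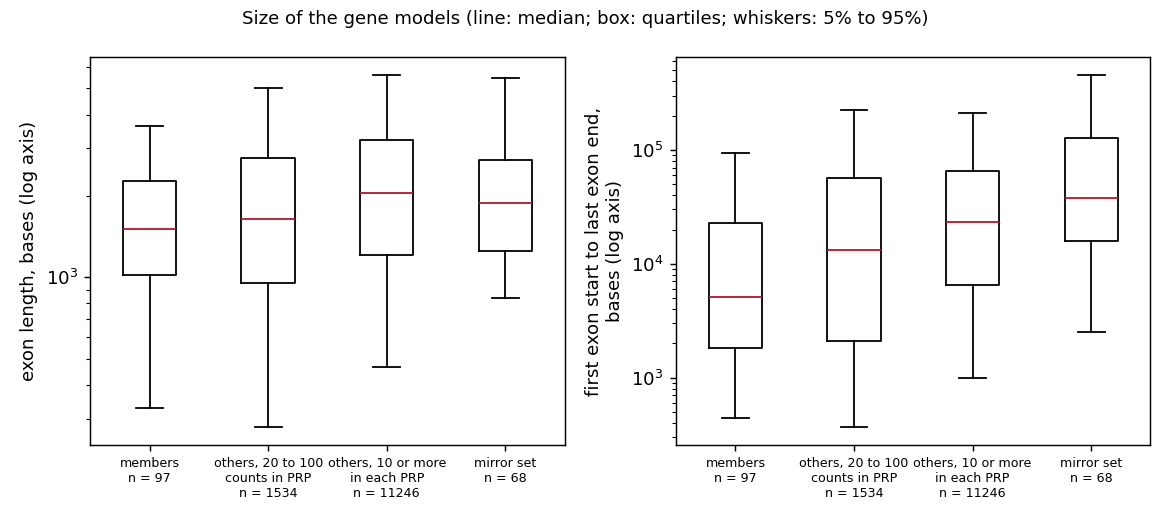
Exon length (left) and genomic span from first exon start to last exon end (right), both in bases on log axes, for the 97 genes, 1534 other genes with 20 to 100 summed PRP counts, 11246 other genes with at least 10 counts in each PRP library and the 68 genes of the opposite pattern. The medians of span run from 5069 to 37635, while those of exon length lie closer together, from 1511 to 2042.

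Within the set, structure ranged widely. A model of 1 exon was listed for 14 genes (14.4%), against 4.78% of the other genes counted in both PRP libraries and 12.5% of those with 20 to 100 summed counts. Of all listed genes, most of which had few or no counts, 23.6% had 1 exon. At the other end, 25 genes (25.8%) had 10 or more exons, against 48.2% of the other counted genes, 32.3% of those with 20 to 100 summed counts and 25.8% of all listed genes. The shortest was a 1-exon model of 58 bases at chr17:27150525-27150582, with 0 and 3 counts without PRP against 39 and 53 with it. The longest exon length was 6776 bases, in a 32-exon gene at chr19:29943034-29967901 with 2 and 2 counts without PRP against 28 and 28 with it, the same count in both PRP libraries. The widest span was the 573252 bases of the chromosome 1 gene at 90092444. The 35-exon gene on chromosome 14 had the most exons, with 0 and 2 counts without PRP against 24 and 11 with it.

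The genes were spread over 18 chromosomes and 34 unplaced sequences. Unplaced sequences held 39 of the 97 (40.2%), against 27.5% of the other genes counted in both PRP libraries and 12 of the 68 genes of the opposite pattern (17.6%). Chromosome 13 held 11 genes (11.3%, against 7.09% of the other genes), and chromosomes 12 and 19 held 6 each (6.19%, against 4.7% and 4.56%). None lay on chromosomes 10, 11, 18 and 20, which held only 1.6%, 1.7%, 2.7% and 1.2% of the other genes. Tested genes outside the set also differed by sequence, with a median fitted log2 fold change of 0.66 on unplaced sequences, the highest, and of −0.87 on chromosome 15, the lowest. Chromosome 15 held 3 of the 97 genes (3.09%, against 2.22% of the other genes), and chromosome 6, at a median of 0.61, held 1. The part of this in where the 97 genes lie was not tested.

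**Figure D4:**
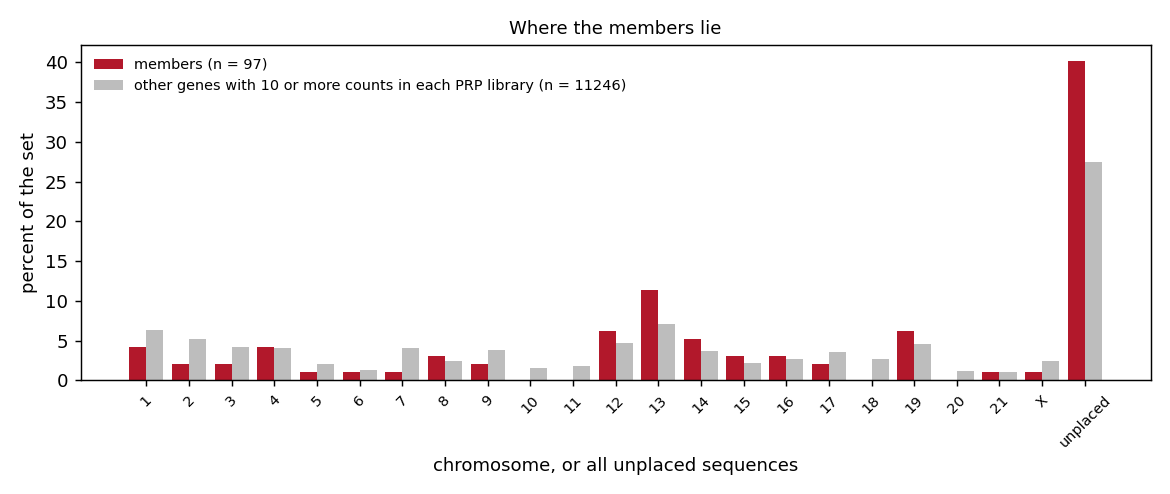
Percent of the 97 genes (red) and of the 11246 other genes with at least 10 counts in each PRP library (grey) on each chromosome and on all unplaced sequences together. The unplaced sequences hold 40.2% of the former and 27.5% of the latter. Chromosomes 10, 11, 18 and 20 hold none of the 97 and 1.6%, 1.7%, 2.7% and 1.2% of the other genes.

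Some of the genes were near each other: 20 of the 97 lay within 500 kb of another, in 9 groups, after the 4 known regions of changed genes had been left out. The same share was not taken for other sets of genes, so the number does not tell whether these lie closer together than others. On GL018991 there were 3. The plus-strand genes at positions 68057 to 68498 and 159483 to 159921 each had 2 exons, of 79 and 248 bases in the order of transcription, and so the same exon length of 327 bases. The former had 0 and 0 counts without PRP against 27 and 51 with it, and the latter 0 and 0, then 73 and 128. No other genes of the set with more than 1 exon had the same exon lengths in the same order. The third, a 4-exon gene on the minus strand at positions 172843 to 246658, had 1 and 0 counts, then 51 and 67. All 3 had more counts in PRP replicate 2. Near-identical copies would lose reads that align to both, so levels within such a pair are uncertain; their sequences were not compared here.

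On the unplaced sequence AAGW02081136, plus-strand genes at positions 19046 to 23418 and 23439 to 28604 lay 20 bases apart. Both had 0 and 3 counts in noPRP, and they had 47 and 55 and 56 and 96 counts in PRP. On chromosome 15, minus-strand genes at positions 79462339 to 79655733 (0 and 0 counts, then 90 and 48) and 79663019 to 79667362 (2 and 0, then 22 and 21) were 7285 bases apart. The chromosome 19 gene at 41228718, among the first 3 by level, had a neighbour of the set at positions 41173911 to 41178469 that was near the minimum, with 1 and 0 counts without PRP against 14 and 10 with it. Neighbours could thus differ in level by far.

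The other 5 groups were low. On chromosome 12 they were the genes at positions 20538823 to 20542004 (0 and 2 counts, then 10 and 13), 20836346 to 20838678 (0 and 0, then 13 and 10) and 20952784 to 20954516 (1 and 3, then 41 and 24). On chromosome 13 there was a pair at positions 31408276 to 31421368 (0 and 2, then 35 and 10) and 31543169 to 31550412 (0 and 2, then 19 and 20). A more distant chromosome 13 pair, 461541 bases apart, lay at positions 132394709 to 132435601 (0 and 4, then 13 and 16) and 132897143 to 132911601 (0 and 0, then 15 and 36); the latter ends just before one of the regions left out. GL018823 held a pair at positions 394127 to 404769 (0 and 0, then 90 and 63) and 439919 to 440971 (1 and 0, then 11 and 16). GL018911 held a pair of 1-exon genes at positions 254367 to 255416 (0 and 0, then 11 and 23) and 260590 to 261606 (0 and 1, then 19 and 13). Of these 11 genes, only the GL018823 gene with 90 and 63 counts reached 50 in a PRP library.

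Genes beside the set were often higher with PRP too. For each gene the nearest tested gene outside the set was taken on either side. Of 90 genes with such a neighbour, 54 (60%) had at least 1 with a fitted log2 fold change above 1, against 33.1% of all tested genes. On chromosomes alone it was 30 of 58 (51.7%), against 28% of tested genes. A neighbour here could overlap the gene or lie in a region left out by the rule. The right neighbour of the chromosome 13 gene at 132897143, with a log2 fold change of 9.37, lies in such a region. Among 82 genes with neighbours on both sides, both were above that limit for 19. The share with both above it was not taken over all tested genes, so nothing is read from this number. Some genes of the set share a neighbour, so these sides hold 163 distinct neighbours. Their median was 0.82 on the log2 scale, against 0.024 over all tested genes outside the set. Of all tested genes, 21.8% exceeded a log2 fold change of 1. These neighbours come from the same libraries and contrast that chose the genes, so the values describe their surroundings and are no test.

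The surroundings of the leading genes differed. The chromosome 14 gene at 94119060 lay between tested genes with log2 fold changes of −1.59 and 0.44, and the chromosome 4 gene at 39915179 between genes with 0.83 and −1.02. Neither had a neighbour above 1. The chromosome 19 gene at 41228718, with the next level, lay between genes at 1.32 and 1.69, of which the latter overlaps it. The chromosome 14 gene at 142371306 lay between tested genes that were lower with PRP, at −1.01 and −3.81. Lower in level, the chromosome 21 gene, at 2.83 CPM, lay between genes at 4.06 and 3.11, the left of them 1087 bases away. The GL018752 gene, at 2.996 CPM, had a left neighbour at 7.87 and a right one at 1.55. Other genes on which the PRP libraries differed most had no neighbour above 1. They lay at chr4:25909812 (0.29 and −4.43), chr1:90092444 (−0.28 and −0.66) and chr14:30696561 (−0.60 and 0.07). Only the right neighbour was above 1 for those at chr4:38111631 (0.54 and 1.29) and GL018829 (0.78 and 2.87). Of the first 4 genes by level, 1 thus had a neighbour above 1. In the rest of the first 12, those at chr13:62739446, chr5:22876778, chr1:102184739, chr4:38111631 and GL018789 had such a neighbour. Their higher values were 3.67, 2.31, 3.64, 1.29 and 1.41. The genes at chr13:48903976, on GL018782 and on GL019134 had none.

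The gene models of 21 of the 97 genes overlapped another model in extent, on the same strand for 8 and on the opposite strand for 13. By the counting program's defaults strand was not used and reads on exons of more than 1 gene were dropped, so these genes are uncertain. The chromosome 19 gene at 41228718 lies within the extent of a same-strand model at positions 41207909 to 41296448, which had 3801 and 1080 counts without PRP against 7823 and 7723 with it. The chromosome 5 gene at 22876778 lies within a same-strand model at positions 22811214 to 22994893 with 31 and 2 counts without PRP against 116 and 53 with it. The chromosome 1 gene at 102184739 overlaps an opposite-strand model at positions 102184055 to 102185673 with 0 and 0 counts without PRP against 4 and 2 with it. None of these 3 partners would itself meet the rule.

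For reference, the fit across all genes called 22 of the 97 higher with PRP (edgeR quasi-likelihood test, adjusted p under 0.05), of 79 that passed the filter on low counts. Of all 12707 tested genes, 0.535% were called in this direction. At an unadjusted p under 0.05, 77 of the 79 were higher, as were 5.31% of all tested genes. All 18 that did not pass the filter had at most 52 counts summed over PRP. The same contrast chose the genes, so nothing is read from these calls. The number called was 14 with upper-quartile normalization, which called 0.362% of all tested genes in this direction. It was 49 with DESeq2, which called 2.18%, and 49 without the filter, where 1.15% were called. In both of these fits all 97 genes were tested, not 79.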

How the data were processed

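Messenger RNA libraries of cultured rabbit tendon stem/progenitor cells were analysed, 2 without and 2 with PRP, and groups were taken from the sample titles. Raw read counts per gene were deposited by the authors, 1 table per library; STAR 2.7.2a, featureCounts 1.6.5 and OryCun2.0 are named in the submitters' processing notes. Per the file headers, reads were counted over exons of Ensembl release 98 by gene identifier, with no option for strand or read pairs. The table of the whole series held the same values (0 columns differed) and was not used.

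Levels are in CPM of a library's total count; ratios and folds use TMM-scaled library sizes. Overlapping exon intervals were merged to count exons. The comparison across genes used edgeR 4.0.16 in R 4.3.3 (filterByExpr, TMM, glmQLFit and glmQLFTest, group as the only term, Benjamini-Hochberg adjustment over 12707 genes), which was tested on simulated data. DESeq2 1.42.0, other normalizations, other limits, no filter, replicate blocks and left-out libraries were alternatives. Wilson and exact (Clopper-Pearson) intervals are at 95% and, like the floor of 3 counts, cover counting error only, which the counting of both ends of a pair makes larger than they show.

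The genes and the rules for describing them were chosen with earlier results of these data known. Named are the 12 genes with the highest mean CPM in PRP, those with the 4 highest and 4 lowest ratios between the PRP libraries among genes with at least 50 counts, those within 500 kb of another, those nearest the limits, and the extremes of length and exon number. Lists of tissue markers and pathway genes could not be used without symbols and have no result. No sequences are shown, because no genome of this build was used here.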

Additional observations from a re-analysis of the deposited data

How the results depend on the processing

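The number of genes taken by the rule, 97, was 28 with 0 counts required in both noPRP libraries, 212 with a noPRP limit of 10, 40 with a PRP minimum of 20 and 237 with a minimum of 5. Without 1 library it was 134 to 221. It stayed within 1.5 times with limits on scaled CPM (74) and with nothing left out (106). Under the first 4 limits in the same order, the median level, 1.05 CPM, was 1.09, 0.897, 2.98 and 0.501. It was 1.16 on TMM-scaled sizes and 0.956 to 0.965 with 1 PRP library left out. The median log2 ratio of the PRP libraries, 0.26, was 0.67, 0.32 and 0.24 under the first 3 limits, 0.014 on raw totals, 0.31 with DESeq2 size factors and −0.21 for the 28 genes with at least 100 summed counts, a split chosen after the data were examined. It was positive under each of the 3 scalings. The median exon length, 1511 bases, was 1689, 1670, 1277 and 1410 under the 4 limits and 1313 for those 28 genes. Genes with 1 exon, 14, numbered 3, 24, 4 and 39, and genes within 500 kb of another, 20, numbered 2, 55, 7 and 67; gaps of 100 and 1000 kb gave 13 and 20. Genes beside a higher neighbour, 54, numbered 47 to 63 without 1 library and 49 within 100 kb. The share over all tested genes was not taken in these settings, so nothing about the set is read from these counts.

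Genes of the set called higher by edgeR were 22 of 79 tested, beside 0.535% of all tested genes. With upper-quartile normalization they were 14 of 79, beside 0.362%. They were 49 of 97 with DESeq2, beside 2.18%, and 49 of 97 without a filter, beside 1.15%, so more of the set was tested there. Nothing says that replicate numbers pair the libraries, and same-numbered libraries deviated from their group means with a correlation of −0.66 across genes. With the replicate number as a block 18 were called, and 0.362% of all tested genes. With the crossed replicate block, chosen after the data were examined, 76 were called, and 13% of all tested genes. Apart from changed limits and fewer genes, conditions or libraries, why these values moved was not tested. Genes with 10 to 19 counts in the lower PRP library, 57 of 97, rest on few fragments.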
